A study of Mus musculus with 8 samples.

Results

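Inflammasome and pyroptosis genes were examined in primary murine microglia exposed to lipopolysaccharide (LPS), the outer membrane glycolipid of Gram-negative bacteria. The group comprised 9 genes taken from a given list by function: the sensors Nlrp3, Nlrp1b, Nlrc4 and Aim2, the adaptor Pycard, the caspase genes Casp1 and Casp4, and the executioners Gsdmd and Ninj1. All 9 were found by Ensembl identifier through GENCODE vM21 symbols among the 52636 gene identifiers of the count table, and 9 of 9 passed the filter on low counts, which 13847 genes passed in all. The rule uses gene names alone, but the members were chosen with earlier results of these data known.

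Inflammasomes are cytosolic complexes that assemble when a sensor protein meets a microbial product or a sign of cell damage. Most sensors recruit the adaptor ASC, encoded by Pycard, which gathers pro-caspase-1 into a filament where it cleaves and activates itself. Active caspase-1 matures interleukin-1 beta and interleukin-18 and cuts gasdermin D, whose freed part forms pores in the plasma membrane, while ninjurin-1 drives the final membrane rupture of pyroptosis. Caspase-11, encoded in mice by Casp4, binds LPS in the cytosol directly and also cuts gasdermin D. In macrophages and microglia, transcription of Nlrp3 and Il1b after LPS is known as priming, and it precedes assembly of the complex, which RNA counts do not measure.

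The cells were wild-type (WT) microglia from brains of neonatal mice, of strain C57BL/6 per the labels, with pups given as C57BL/6N in the study's methods, shaken off mixed glial cultures and kept in DMEM with 10% fetal bovine serum and 10 ng/ml CSF-1. They received 5 µg/ml LPS (LPS group, n = 4 libraries) or vehicle (vehicle group, n = 4 libraries), and RNA was taken after 24 h and sequenced. Both groups thus shared strain, genotype, serum and CSF-1, and the cells had no neurons or tissue around them. The labels call the 4 libraries of a group biological replicates without saying whether they came from separate cultures, so p-values measure only the spread between these libraries.

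Total counts ranged from 21370879 to 26129375 in the vehicle group and from 20071921 to 30604447 in the LPS group. TMM factors, which rescale each library on the assumption that most genes do not change, were 1.21 to 1.32 in vehicle and 0.701 to 0.833 in LPS libraries. With this scaling 64.1% of all tested genes were still called (edgeR adjusted p under 0.05), and the assumption was not tested. Of 10 microglial marker genes, 8 were called lower after LPS (edgeR adjusted p under 0.05) and 2 were not called. Of all tested genes, 33.8% were called lower. The 10 markers together held 6581 to 7641 CPM in vehicle and 763 to 1214 CPM in LPS libraries. CPM is a gene's count scaled to the TMM-adjusted size of its library. Summed markers of monocytes and neutrophils went from 2.09 to 3.60 CPM to 575 to 1176 CPM, nearly all from S100a8, with S100a9 and Mpo at 0. Endothelial markers summed to 31.1 to 73.8 CPM in vehicle and 163 to 254 CPM in LPS libraries, with Cldn5 at 0. Astrocyte markers summed to 22.3 to 53.2 and 42.9 to 127 CPM, markers of oligodendrocyte precursors to 27.5 to 141 and 63.8 to 139 CPM, and those of oligodendrocytes to 79.5 to 114 and 18.6 to 23.2 CPM, with Mobp at 0. Neuronal markers stayed between 2.10 and 8.51 CPM in every library and T cell markers between 0.804 and 1.68 CPM, with Cd3e, Cd3d and Cd3g at 0. The part of these marker levels in the results that follow was not tested, and in such bulk samples fewer cells of a type and less RNA per cell cannot be told apart.

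Upstream sequence is shown for 4 genes that stood at the ends of the response, Casp4, Nlrp3 and Casp1 among those that rose and Nlrp1b as the one that fell furthest. Each line holds the 250 bases before a RefSeq transcript start, on the strand of the gene and in build GRCm38.p6. Capitals mark matches to a motif of the transcription factor NF-κB in Casp4 and Nlrp3, and matches to the letters GAGGAA, a core bound by ETS factors such as PU.1, in Casp1 and Nlrp1b. In Casp1 this core lies on the opposite strand, so the printed line reads TTCCTC. The NF-κB match in Nlrp3 likewise lies on the opposite strand. For Casp4, Nlrp3 and Nlrp1b, 1 of 2 windows is shown. The other Nlrp3 window held only matches to GAGGAA, and the other Nlrp1b window held 0 matches. The windows lie at chr9:5308599-5308848 (plus strand, Casp4), chr11:59541319-59541568 (plus strand, Nlrp3), chr9:5298267-5298516 (plus strand, Casp1) and chr11:71230734-71230983 (minus strand, Nlrp1b).
Casp4: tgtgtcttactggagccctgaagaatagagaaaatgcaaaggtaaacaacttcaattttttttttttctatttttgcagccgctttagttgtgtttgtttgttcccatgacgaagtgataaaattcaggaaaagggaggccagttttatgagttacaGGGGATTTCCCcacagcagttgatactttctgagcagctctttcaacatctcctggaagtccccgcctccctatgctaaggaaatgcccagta
Nlrp3: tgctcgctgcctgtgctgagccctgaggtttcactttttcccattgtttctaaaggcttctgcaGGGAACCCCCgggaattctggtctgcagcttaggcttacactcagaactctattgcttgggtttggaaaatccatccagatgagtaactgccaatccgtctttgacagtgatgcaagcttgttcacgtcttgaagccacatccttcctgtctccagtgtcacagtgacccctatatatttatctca
Casp1: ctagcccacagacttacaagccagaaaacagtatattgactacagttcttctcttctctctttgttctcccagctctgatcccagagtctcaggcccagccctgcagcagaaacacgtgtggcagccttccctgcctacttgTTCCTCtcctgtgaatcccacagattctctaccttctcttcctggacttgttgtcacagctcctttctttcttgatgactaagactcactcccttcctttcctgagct
Nlrp1b: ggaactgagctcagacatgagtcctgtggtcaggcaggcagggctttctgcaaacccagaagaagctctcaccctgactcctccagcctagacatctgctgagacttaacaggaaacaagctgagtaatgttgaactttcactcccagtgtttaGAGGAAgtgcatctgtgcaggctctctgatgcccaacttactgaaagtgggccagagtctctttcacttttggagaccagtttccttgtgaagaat

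RefSeq held 11 such windows for 8 of the 9 genes, and none for Gsdmd. In windows of 300 bases, 250 before and 50 after the start, the NF-κB motif was found on either strand in 3 windows of 2 genes, Nlrp3 and Casp4, against 4.51% of all 32851 windows. In Nlrp3 it spanned positions -186 to -177 from the start, and in Casp4 overlapping matches spanned -93 to -83. The 2 Casp4 windows overlap and hold the same match. The letters GAGGAA occurred on either strand in 5 windows of 5 genes (Nlrp3, Nlrp1b, Aim2, Pycard and Casp1) and in 28.3% of all windows. The interferon-stimulated element, spelled GAAA, any 2 bases, GAAA (3.44% of all windows), the STAT element TTCNNNGAA (8.30%) and TATAAA (13.6%) were in 0 of the 11 windows. A match is a description of letters, and binding was not measured here.

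LPS changed 8 of the 9 genes past an adjusted p of 0.05 in edgeR's quasi-likelihood test, with 6 higher and 2 lower. Across all tested genes 64.1% were called, 30.3% higher and 33.8% lower, so that a call in itself was common in these cells. Vehicle and LPS libraries did not overlap for 7 of the 9 genes, against 60.2% of all tested genes. The caspase genes and Nlrp3 rose most, Aim2, Gsdmd and Ninj1 rose less, Nlrp1b and Pycard fell, and Nlrc4 did not pass. The median log2 fold change of the 9 was 1.11, beside -0.11 over all tested genes. Changes of at least 1 on the log2 scale were called for 7 of the 9, 5 higher and 2 lower, against 16.1% and 21.7% of all tested genes. Scaling by total counts alone moved the median log2 fold change of all genes by -0.68 and turned the split of all calls from 4191 higher and 4686 lower to 1988 higher and 8457 lower. Under that scaling, which was chosen after seeing the data, 5 of the 9 genes were called higher and 2 lower, with log2 fold changes of 1.96 for Nlrp3, 1.68 for Casp1 and 2.10 for Casp4. Aim2 and Gsdmd were still called higher there, but at only 0.47 and 0.44. Under upper-quartile scaling Aim2 was at 0.997 and Gsdmd at 0.956, so neither reached a log2 change of 1.

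**Figure D1:**
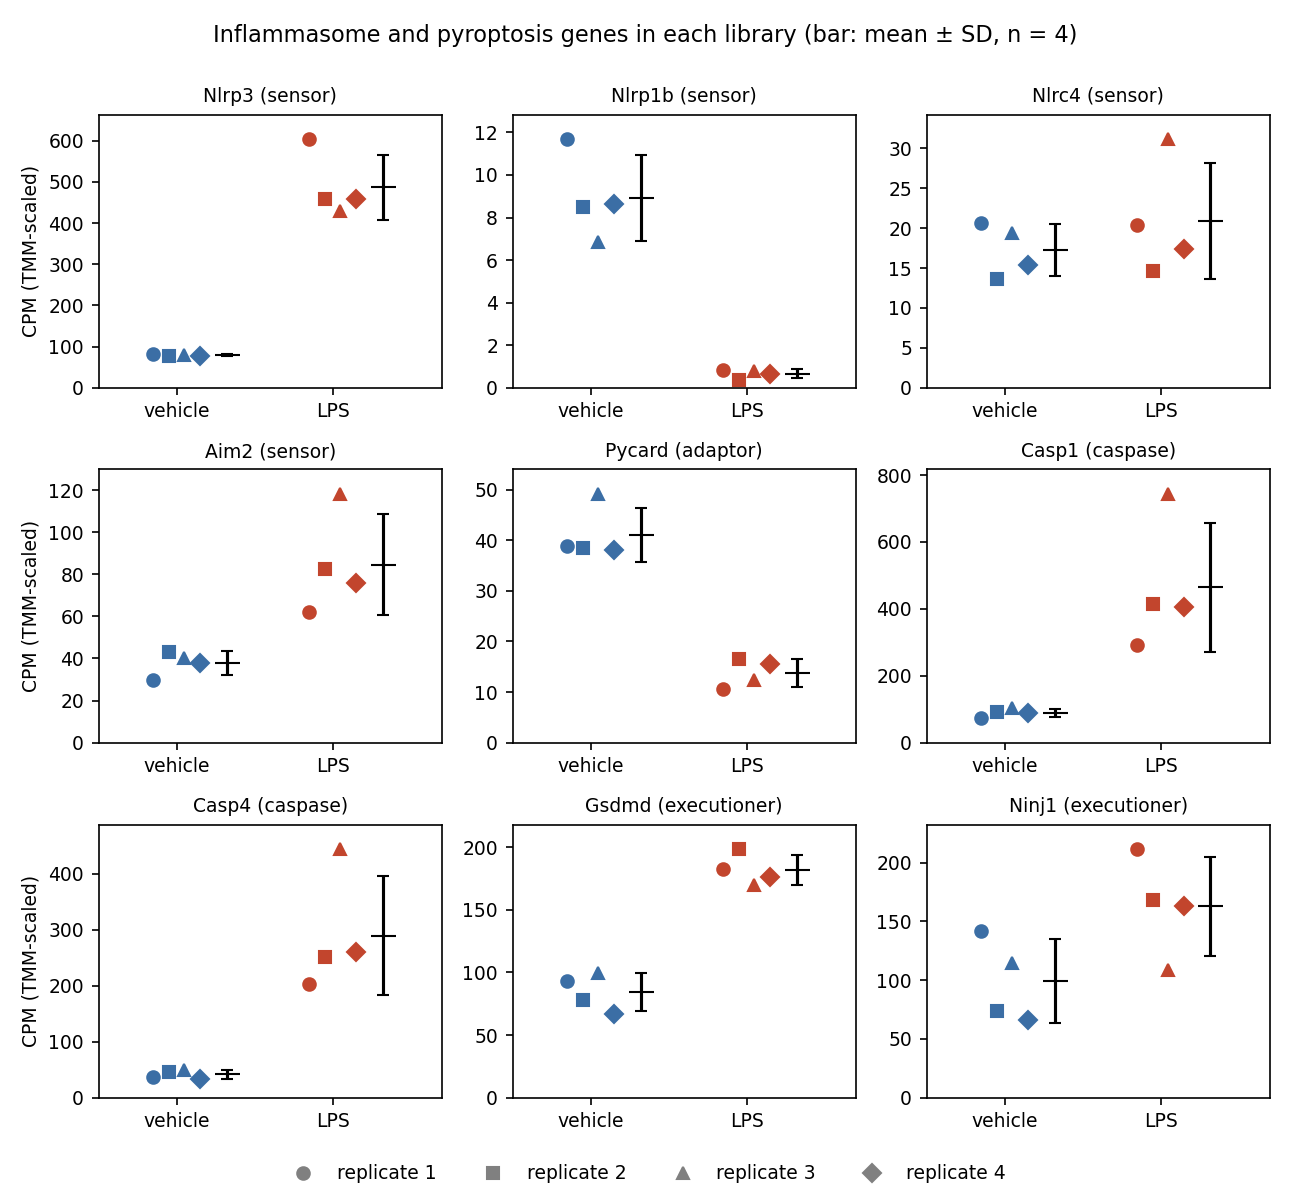
Level of each of the 9 genes in CPM (TMM-scaled, linear axis from 0) in the 4 vehicle and 4 LPS libraries, with a marker shape for each replicate number and the mean ± SD beside the points. The groups are apart for all genes but Nlrc4 and Ninj1, and the replicate 3 library is the highest LPS library for Casp1, at 742 CPM, and Casp4, at 443 CPM.

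Among the sensors, Nlrp3 was the most abundant and the one that rose most. Nlrp3 encodes the sensor of potassium loss and membrane disturbance. The gene (ENSMUSG00000032691, chr11:59541568-59566956, plus strand) was at 80.7, 77.8, 80.1 and 76.5 CPM in vehicle replicates 1 to 4 and at 604, 458, 430.1 and 458 CPM in LPS replicates 1 to 4. Its vehicle libraries lay close together and every LPS library was far above them, with LPS replicate 1 standing over the other LPS libraries. The mean went from 78.8 ± 1.97 to 487 ± 78.7 CPM (SD, n = 4), a log2 fold change of 2.63 (SE 0.13, edgeR adjusted p = 4.01e-07) or 6.18-fold (95% interval 5.02 to 7.61). These levels rested on 2159 to 2529 counts per vehicle and 8415 to 10095 counts per LPS library. Its log2 fold change stood at percentile 95.1 of all tested genes.

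Aim2 encodes the sensor of cytosolic double-stranded DNA. It lay at 29.7, 42.9, 40.1 and 38.1 CPM in the vehicle libraries and at 61.9, 82.6, 118 and 75.8 CPM in the LPS libraries (ENSMUSG00000037860, chr1:173350879-173466040, plus strand). The groups did not overlap, and LPS replicate 3 was the highest library. The mean rose from 37.7 ± 5.66 to 84.6 ± 23.9 CPM (SD, n = 4), a log2 fold change of 1.17 (SE 0.20, edgeR adjusted p = 0.000592).

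Nlrc4 encodes the sensor that acts with NAIP proteins on flagellin and bacterial secretion needles. Vehicle libraries held 20.6, 13.7, 19.4 and 15.4 CPM, and LPS libraries 20.4, 14.6, 31.1 and 17.4 CPM (ENSMUSG00000039193, chr17:74425438-74459142, minus strand). Only LPS replicate 3 was above the vehicle range, and the groups overlapped. The log2 fold change was 0.27 (SE 0.24, 95% interval -0.25 to 0.80, edgeR adjusted p = 0.326), so a change of up to 1.74-fold was within the interval. Without LPS replicate 3 it was 0.02 (edgeR adjusted p = 0.923), and scaling by total counts gave -0.42 (edgeR adjusted p = 0.0794).

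Nlrp1b encodes a sensor that is activated when its own amino-terminal part is degraded. Its vehicle libraries held 11.7, 8.50, 6.84 and 8.62 CPM and its LPS libraries 0.837, 0.381, 0.792 and 0.649 CPM (ENSMUSG00000070390, chr11:71153102-71230733, minus strand). Every LPS library was below 1 CPM and far below every vehicle library. The mean fell from 8.91 ± 2.01 to 0.665 ± 0.206 CPM (SD, n = 4), a log2 fold change of -3.73 (SE 0.28, edgeR adjusted p = 3.68e-06), or 13.3-fold lower. The LPS values rested on 7 to 17 counts per library, against 216 to 334 in vehicle, and the gene was not tested where at least 10 counts in every library were required. Its log2 fold change stood at percentile 2.41 of all tested genes.

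Nlrp1a, the neighbouring paralog, with 8397 bases between it and Nlrp1b, was at 9.75 ± 0.849 CPM in vehicle and 11.6 ± 0.925 CPM in LPS libraries (SD, n = 4). Its log2 fold change was 0.25 (SE 0.12, 95% interval -0.02 to 0.53, edgeR adjusted p = 0.0948). Scaling by total counts gave -0.42 (edgeR adjusted p = 0.0108), and leaving out vehicle replicate 3 gave 0.38 (edgeR adjusted p = 0.0324). Of the windows of 50 bases in Nlrp1b exons, 1.45% also occur in another gene, so reads of that length could mostly be placed. Nlrp1a is outside the 9 genes and was chosen for mention after its values were seen.

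Per kilobase of merged exons, the sensor levels shifted toward Nlrp3. In vehicle libraries Nlrp3 made up 57.6%, 53.8%, 54.4% and 55.0% of the summed per-kilobase level of the 4 sensors, and in LPS libraries 87.1%, 80.9%, 72.4% and 81.6%. Aim2 went from 30.6% ± 4.18 to 16.5% ± 5.21, Nlrc4 from 10.2% ± 1.95 to 2.93% ± 1.02 and Nlrp1b from 4.03% ± 0.987 to 0.0703% ± 0.0187 (SD, n = 4). The share of Aim2 thus went down while its own level went up. With the longest coding transcript as the length, the mean share of Nlrp3 went from 50.7% to 77.7%.

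**Figure D2:**
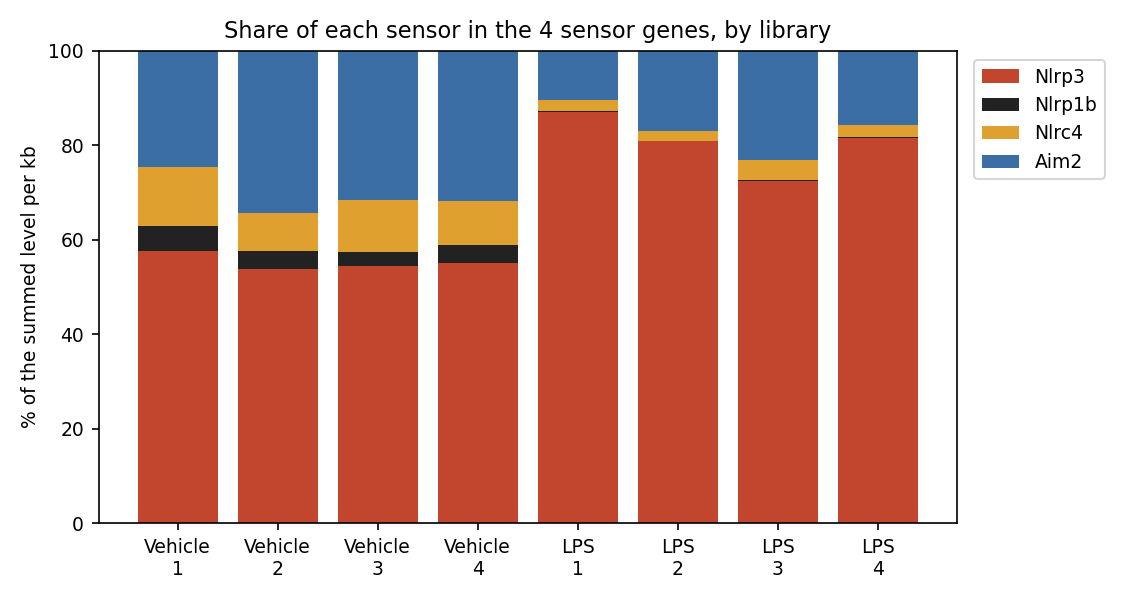
Share of Nlrp3, Nlrp1b, Nlrc4 and Aim2 in the summed level per kilobase of the 4 sensors (percent, stacked bars from 0 to 100) in each of the 8 libraries. Nlrp3 takes 53.8% to 57.6% in vehicle and 72.4% to 87.1% in LPS libraries, and the Nlrp1b band is hardly visible after LPS.

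The adaptor fell while the most abundant sensor rose. Pycard encodes ASC, the link between pyrin-domain sensors and caspase-1. It was at 38.8, 38.4, 49.1 and 38.0 CPM in vehicle and at 10.7, 16.6, 12.3 and 15.6 CPM in LPS libraries (ENSMUSG00000030793, chr7:127989708-127993867, minus strand), and every LPS library was below every vehicle library. The mean fell from 41.1 ± 5.34 to 13.8 ± 2.77 CPM (SD, n = 4), a log2 fold change of -1.57 (SE 0.16, edgeR adjusted p = 2.44e-05), or 2.98-fold lower. LPS libraries held 179 to 305 counts and vehicle libraries 1072 to 1549. An opposite-strand gene, Gm45205, covers 12.8% of the exon bases of Pycard and had a total of 1 count over the 8 libraries.

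The ratio of Pycard to Nlrp3 per kilobase was 0.514, 0.527, 0.654 and 0.530 in the vehicle libraries and 0.0189, 0.0387, 0.0305 and 0.0364 in the LPS libraries. The ratio of Pycard to Casp1 went from 0.183 ± 0.0203 to 0.0129 ± 0.00432 (SD, n = 4). Both ratios fell in every LPS library below the vehicle range. These are ratios of RNA levels, and the amounts of ASC, NLRP3 and caspase-1 protein were not measured here.

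Both caspase genes rose, and they lie side by side on chromosome 9 with 1562 bases between them. Casp1 encodes the protease that matures interleukin-1 beta. It went from 72.8, 91.5, 103 and 88.2 CPM in vehicle to 293, 415, 742 and 407 CPM in LPS libraries (ENSMUSG00000025888, chr9:5298517-5307265, plus strand). The groups were far apart, but LPS replicate 3 was well above and LPS replicate 1 below the other LPS libraries. The mean went from 88.9 ± 12.5 to 464 ± 193 CPM (SD, n = 4), a log2 fold change of 2.38 (SE 0.27, edgeR adjusted p = 4.49e-05) or 5.22-fold (95% interval 3.43 to 7.93).

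Casp4, the gene of caspase-11, had the largest rise on the log2 scale among the 9 genes. It was at 36.6, 45.2, 49.6 and 34.1 CPM in vehicle and at 203, 251, 443 and 261 CPM in LPS libraries (ENSMUSG00000033538, chr9:5308828-5336783, plus strand). As for Casp1, LPS replicate 3 was the highest and LPS replicate 1 the lowest LPS library. The log2 fold change was 2.81 (SE 0.25, edgeR adjusted p = 1.06e-05), or 6.99-fold (95% interval 4.73 to 10.3), from a mean of 41.4 ± 7.25 to 289.5 ± 106 CPM (SD, n = 4). The intervals of Casp1, Casp4 and Nlrp3 overlap, and the order of their changes was not tested.

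The ratio of Casp4 to Casp1 per kilobase was 0.203, 0.199, 0.194 and 0.156 in vehicle and 0.279, 0.244, 0.241 and 0.259 in LPS libraries. The LPS values lay above the vehicle values in every library, and they stayed close together although the levels of both genes varied between LPS libraries. The level of this ratio depends on the length used, since merged Casp4 exons span 3710 bases and its longest coding transcript 1435, with which the ratio went from 0.486 to 0.661.

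The executioner genes rose less. Gsdmd encodes gasdermin D, the pore former that both caspases cut. Its libraries held 93.2, 77.9, 99.5 and 66.7 CPM in vehicle and 182, 198, 170.0 and 176 CPM after LPS (ENSMUSG00000022575, chr15:75862327-75867408, plus strand). The groups did not overlap, and the LPS libraries lay close together, with a coefficient of variation of 6.70%. The log2 fold change was 1.11 (SE 0.14, edgeR adjusted p = 7.91e-05), or 2.15-fold.

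Ninj1 encodes ninjurin-1, the membrane protein that ruptures dying cells. Vehicle libraries held 142, 73.3, 115 and 66.5 CPM and LPS libraries 211, 168, 109 and 163 CPM (ENSMUSG00000037966, chr13:49187485-49196244, plus strand). The groups overlapped, as LPS replicate 3 was below vehicle replicates 1 and 3. The log2 fold change was 0.72 (SE 0.27, edgeR adjusted p = 0.0409). This call was lost at an adjusted p of 0.01, with a required log2 change of 1, and in 8 of the 14 alternative fits, among them scaling by total counts, where the log2 fold change was 0.07 (edgeR adjusted p = 0.833), and leaving out LPS replicate 1, where it was 0.57 (edgeR adjusted p = 0.102). It was also lost without vehicle replicate 2 (0.63, edgeR adjusted p = 0.107), vehicle replicate 4 (0.60, edgeR adjusted p = 0.103), LPS replicate 2 (0.71, edgeR adjusted p = 0.0771) or LPS replicate 4 (0.72, edgeR adjusted p = 0.0717).

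Levels of different genes can be set side by side only per length. In vehicle libraries the per-kilobase order in CPM per kilobase was Ninj1 at 63.1 ± 22.7, Casp1 at 59.4 ± 8.33, Gsdmd at 35.5 ± 6.24, Nlrp3 at 19.4 ± 0.484, Casp4 at 11.1 ± 1.95, Pycard at 10.8 ± 1.41, Aim2 at 10.8 ± 1.62, Nlrc4 at 3.59 ± 0.680 and Nlrp1b at 1.41 ± 0.319 (SD, n = 4). Ninj1 and Casp1, and likewise Casp4, Pycard and Aim2, were not apart beyond their spread. After LPS the order was Casp1 at 310.2 ± 129, Nlrp3 at 120.1 ± 19.4, Ninj1 at 104 ± 26.8, Casp4 at 78.0 ± 28.5, Gsdmd at 76.4 ± 5.12, Aim2 at 24.2 ± 6.83, Nlrc4 at 4.34 ± 1.50, Pycard at 3.63 ± 0.728 and Nlrp1b at 0.105 ± 0.0326 CPM per kilobase. Nlrp3 and Ninj1, Ninj1 and Casp4, Casp4 and Gsdmd, and Nlrc4 and Pycard were neighbours within their spread. Pycard thus went from a level like that of Aim2 to one like that of Nlrc4. The place of Casp4 rests on its long merged exons, as its mean was 28.8 in vehicle and 202 CPM per kilobase in LPS libraries with the longest coding transcript.

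The other genes of the pathway were taken from a list of 34, of which 25 passed the filter on low counts. Of these, 14 were higher, 3 were lower and 8 were not called, with a median log2 fold change of 0.63 beside -0.11 over all tested genes. Over all tested genes 64.1% were called, 30.3% higher and 33.8% lower, so the 17 of 25 called is near that share. Under scaling by total counts the split was 10 higher and 10 lower. With the replicate number as a block, 17 were called as well, but 13 higher and 4 lower.

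**Figure D3:**
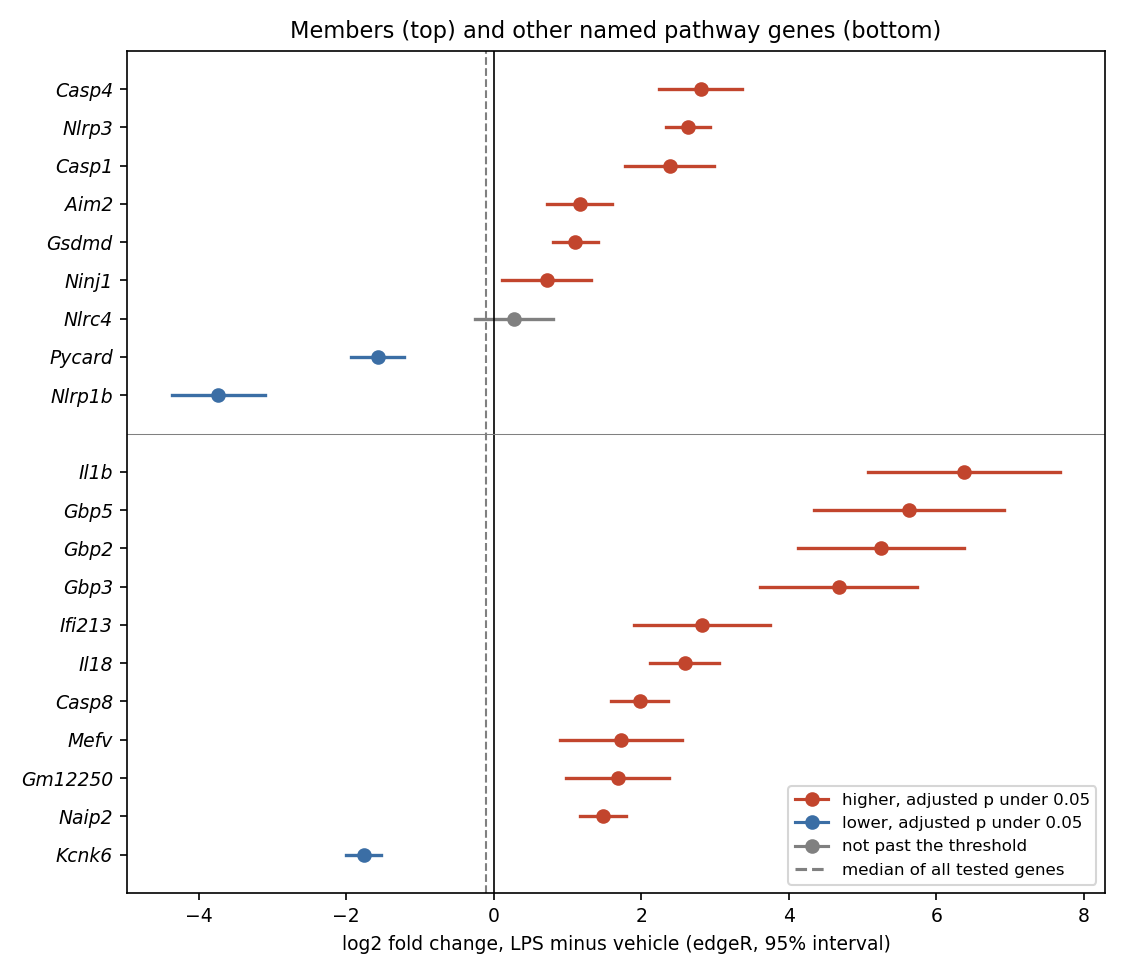
Log2 fold change of LPS against vehicle with its 95% interval (edgeR) for the 9 genes (top) and for 11 other pathway genes (bottom), coloured by whether the adjusted p was under 0.05, with the median of all tested genes as a dashed line. Casp4, Nlrp3 and Casp1 lead the upper set and Il1b, at 6.38, the lower set, while Nlrp1b, Pycard and Kcnk6 lie on the left.

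The substrates of caspase-1 were both higher, beside 30.3% of all tested genes. Il1b, the gene of interleukin-1 beta, was at 82.2, 27.3, 32.3 and 23.0 CPM in vehicle and at 4667, 2102, 4999.6 and 1924 CPM in LPS libraries. Its log2 fold change was 6.38 (SE 0.58, edgeR adjusted p = 1.19e-05), or 83.0-fold, and 6.98 without vehicle replicate 1. Il18, the gene of interleukin-18, rose from 10.0 ± 2.63 to 60.1 ± 11.6 CPM (SD, n = 4), a log2 fold change of 2.59 (SE 0.21, edgeR adjusted p = 5.28e-06).

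Guanylate binding proteins (GBPs) and an immunity-related GTPase coat cytosolic bacteria and bring caspase-11 to their LPS. Their genes were higher in 4 of 4 cases, beside 30.3% of all tested genes, with a median log2 fold change of 4.96. Gbp2 was at 49.5, 60.2, 135 and 31.3 CPM in vehicle and at 1762, 2417, 3936 and 2394 CPM in LPS libraries, a log2 fold change of 5.25 (SE 0.50, edgeR adjusted p = 1.61e-05). Gbp5, which acts on the same targets, changed by 5.62 (SE 0.57, edgeR adjusted p = 2.42e-05) and Gbp3 by 4.67 (SE 0.47, edgeR adjusted p = 2.33e-05). Gm12250, which encodes Irgb10, changed by 1.68 (SE 0.31, edgeR adjusted p = 0.00103). Vehicle replicate 3 and LPS replicate 3 were the highest library of their group for each of these 4 genes. Without vehicle replicate 3 the log2 fold changes were 5.85 for Gbp2, 6.33 for Gbp5 and 5.25 for Gbp3.

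Of the other sensors and their helpers, 5 of 9 were tested, and 4 of them were called higher, beside 30.3% of all tested genes. Naip2, which detects the secretion rod protein for Nlrc4, rose from 74.4 ± 6.77 to 208 ± 37.3 CPM (SD, n = 4), a log2 fold change of 1.48 (SE 0.14, edgeR adjusted p = 1.58e-05). Mefv, the gene of pyrin, had a log2 fold change of 1.72 (SE 0.37, edgeR adjusted p = 0.00243) on only 8 to 17 counts per vehicle and 12 to 35 counts per LPS library. Naip5 and Naip6, receptors for flagellin, changed by 0.45 (edgeR adjusted p = 0.0485) and 0.63 (edgeR adjusted p = 0.0027), while scaling by total counts gave -0.25 for Naip5 and -0.06 for Naip6. The call of Naip5 was lost in 9 of 14 alternatives, among them the replicate block (edgeR adjusted p = 0.0603). Naip2, Naip5 and Naip6 share 19.1%, 36.9% and 21.5% of their exon windows of 50 bases with other genes, so their counts are uncertain. Nlrp6 and Nlrp12 were at 0 in all libraries, while Nlrp10, at 0 to 16 counts, and Naip1, at 0 to 32 counts, did not pass the filter.

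Among 8 genes that license or trigger Nlrp3 and Nlrp1b, 0 were higher, 3 were lower and 5 were not called in edgeR's test at an adjusted p of 0.05. Of all tested genes, 64.1% were called, 30.3% higher and 33.8% lower. The share of lower genes in this group was thus near that of all genes. Kcnk6, which encodes the potassium efflux channel TWIK2, fell from 55.1 ± 3.92 to 16.2 ± 1.56 CPM (SD, n = 4), a log2 fold change of -1.76 (SE 0.10, edgeR adjusted p = 8.90e-07). Nek7, whose product binds NLRP3 in the assembled complex, fell from 186 ± 6.32 to 101 ± 26.3 CPM (SD, n = 4), a log2 fold change of -0.88 (SE 0.18, edgeR adjusted p = 0.00165). Panx1, a membrane channel gene, changed by -0.75 (SE 0.26, edgeR adjusted p = 0.028), a call lost in 5 of the 8 fits that left out 1 library. P2rx7, the gene of the ATP-gated channel, was at 119 ± 18.1 CPM in vehicle and 68.0 ± 37.4 CPM in LPS libraries (SD, n = 4), with a log2 fold change of -0.81 (SE 0.33, edgeR adjusted p = 0.0533). It passed in 7 of 14 alternatives, namely DESeq2, both other filters on low counts, both other scalings, the replicate block (edgeR adjusted p = 0.0103) and the fit without LPS replicate 3 (-1.24, edgeR adjusted p = 0.00132). Txnip, Brcc3, Dpp8 and Dpp9 did not pass, with log2 fold changes of -0.19, 0.09, -0.26 and 0.07. Under scaling by total counts each of them was called lower, at -0.87, -0.60, -0.95 and -0.59. Dpp8 was also called lower under upper-quartile scaling (-0.42, edgeR adjusted p = 0.006) and with at least 10 counts in every library (-0.32, edgeR adjusted p = 0.0256). The same held for Dpp8 without LPS replicate 3 (-0.37, edgeR adjusted p = 0.00428).

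Of 3 other caspase genes, 2 were tested and were higher, beside 30.3% of all tested genes. Casp12, the next gene after Casp4, held 0 to 6 counts per library. Casp8, which acts below death receptors, rose from 86.1 ± 9.60 to 339 ± 79.3 CPM (SD, n = 4), a log2 fold change of 1.98 (SE 0.17, edgeR adjusted p = 8.42e-06). Casp6 changed by 0.72 (edgeR adjusted p = 0.00199), and by 0.03 under scaling by total counts.

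Of 4 decoys and inhibitors, only Ifi213, listed in RefSeq also as Pydc4, passed the filter, with a log2 fold change of 2.82 (SE 0.41, edgeR adjusted p = 0.000229) from 12.1 ± 7.31 to 85.3 ± 22.4 CPM (SD, n = 4). Serpinb1a held 1 to 17, Ifi202b 0 to 9 and Ifi208 1 to 20 counts per library. Of the other pore formers, Gsdme, another gasdermin gene, was not called, with a log2 fold change of 0.51 (edgeR adjusted p = 0.147), and Ninj2 held at most 4 counts. Of the membrane repair genes, Chmp4b rose by 0.92 (edgeR adjusted p = 0.000186), and by 0.25 under scaling by total counts. Chmp3 was not called, with a log2 fold change of 0.23 (edgeR adjusted p = 0.107). For Chmp3, scaling by total counts gave -0.46 (edgeR adjusted p = 0.000774). Leaving out LPS replicate 1 or vehicle replicate 3 gave 0.30 for Chmp3 (edgeR adjusted p = 0.0445 and 0.0496). Nek7, Panx1, P2rx7, Naip5, Naip6, Casp6, Chmp4b and the uncalled genes of these groups lie outside the rule for named genes and were chosen after their values were seen.

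The LPS libraries differed among themselves in a pattern shared by several of the genes. LPS replicate 3 was at 2.00 times the mean of the other 3 LPS libraries for Casp1, 1.86 times for Casp4, 1.78 times for Nlrc4 and 1.61 times for Aim2. For Nlrp3 the same ratio was 0.849 and for Ninj1 0.601. LPS replicate 1 was at 0.563 times the others for Casp1 and 0.637 times for Casp4, but at 1.35 times for Nlrp3 and 1.44 times for Ninj1. Over the 9 genes and the 11 other named pathway genes, LPS replicate 3 was the highest LPS library for 14 of 20 and LPS replicate 1 the lowest for 12 of 20. Among the 9 genes alone, LPS replicate 3 was the highest for 4. Such shares were not computed over all tested genes in either group, so whether the order is particular to these genes was not tested. LPS replicate 3 also had the highest total count, 30604447, and the lowest TMM factor, 0.701.

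A similar order was seen without LPS. Vehicle replicate 3 was the highest vehicle library for 14 of the 20 genes, and replicate 3 was the highest in both groups for 11 of them, among them Casp1, Casp4, Casp8, Il18 and the 3 GBP genes. Replicate 1 was the highest in both groups for Nlrp3, Nlrp1b and Ninj1. Vehicle replicate 3 was at 2.87 times the mean of the other vehicle libraries for Gbp2 and 3.31 times for Gbp5, against 1.22 times for Casp1. Without LPS replicate 3, the log2 fold changes of Casp1 and Casp4 were the lowest of the fits that left out 1 library, at 2.07 and 2.53, and both calls held. Vehicle replicate 3 held the lowest summed level of astrocyte markers, 22.3 CPM, and of oligodendrocyte precursor markers, 27.5 CPM, among the vehicle libraries, and the part of this in the order was not tested.

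**Figure D4:**
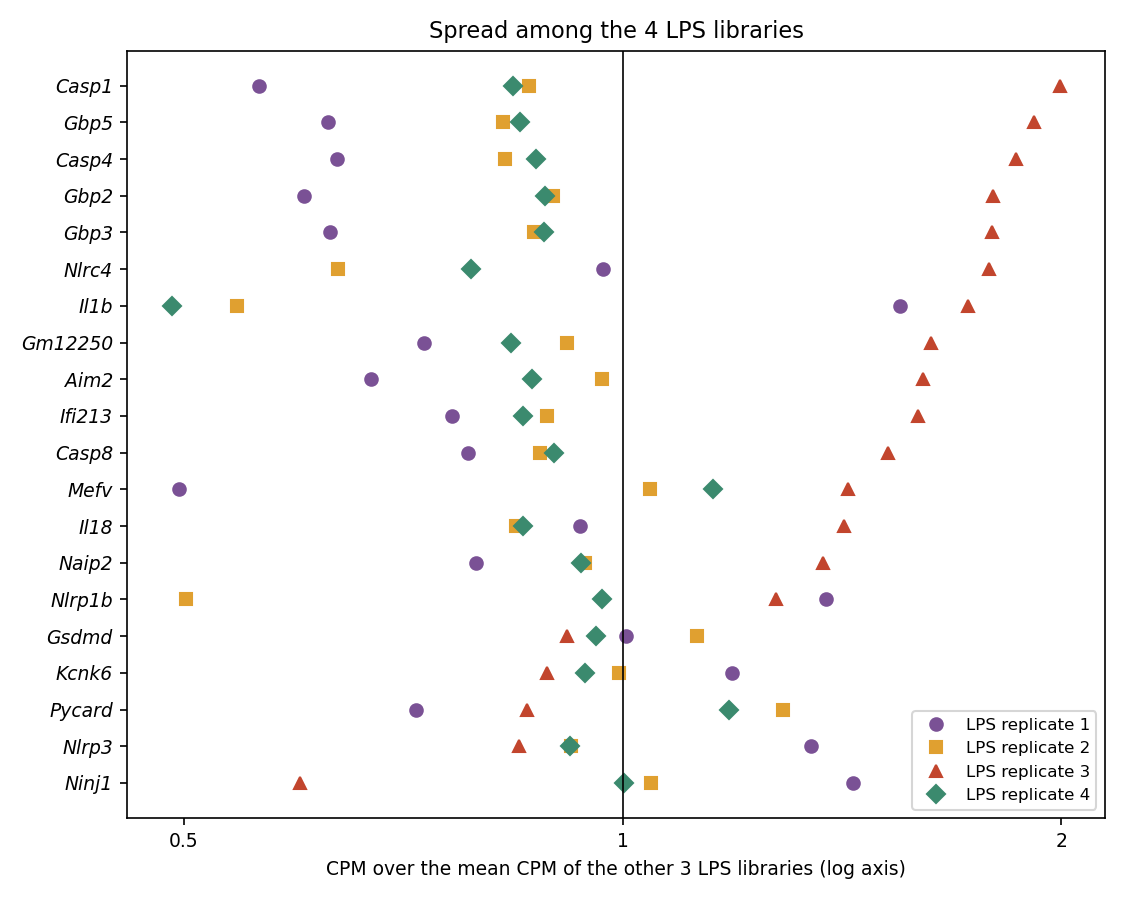
CPM of each LPS library over the mean CPM of the other 3 LPS libraries (log axis, 1 marks the mean of the others) for the 9 genes and 11 other named pathway genes, sorted by LPS replicate 3. LPS replicate 3 reaches 2.00 for Casp1 and falls to 0.601 for Ninj1.

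Genes outside the 9 with the most similar pattern were named by Pearson's correlation of log2 CPM over the 8 libraries among 11194 genes. They were Tmc3 for Nlrp3 (r = 0.999), Ankrd10 for Nlrp1b (r = 0.996), Tor1aip2 for Aim2 (r = 0.997), Calhm2 for Pycard (r = 0.998), Baz1b for Casp1 (r = 0.9996), Usp25 for Casp4 (r = 0.999), Med11 for Gsdmd (r = 0.996), Sucla2 for Nlrc4 (r = 0.955) and Abhd11 for Ninj1 (r = 0.964). Such a correlation does not compare sizes of change. The log2 fold change was 0.82 for Baz1b beside 2.38 for Casp1, and 8.86 for Tmc3 beside 2.63 for Nlrp3. For Tor1aip2 it was 1.23, close to the 1.17 of Aim2. The 8 points fall into the vehicle and LPS groups and share the libraries, so for most genes r reflects the gap between groups. Between 773 and 1673 genes exceeded 0.95 for each of the 7 genes whose groups did not overlap, against 4 for Nlrc4 and 7 for Ninj1.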

How the data were processed

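RNA of 4 vehicle and 4 LPS samples was sequenced as single-end 50-base reads. The deposited values are whole-number counts per Ensembl gene, which the authors made with HTSeqGenie from uniquely aligned reads (GSNAP, GRCm38). The labels name a stranded mRNA kit and a NovaSeq, whereas the study's methods name a TruSeq v2 kit and a HiSeq, and whether counting used strand is not given in the sources used here. All columns were matched to a sample, and 0 were left out.

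Symbols and coordinates came from GENCODE vM21 (52489 of 52636 identifiers), except Ifi208 and Ifi213, matched through RefSeq synonyms of Pydc3 and Pydc4. Counts were tested with edgeR 4.0.16 in R 4.3.3 (quasi-likelihood, TMM, low genes removed by filterByExpr at 10 counts in a library and 15 in total) over 13847 genes, with Benjamini-Hochberg adjustment and a threshold of 0.05. Levels are TMM-scaled CPM, and levels per kilobase divide these by merged exon length. The script was tested on simulated data with 200 changed genes, far fewer than were called here. Rises and falls were drawn with equal chance and no scaling difference between groups was put in. The simulation therefore does not test the choice of scaling. There edgeR recovered 76.5% of the changed genes, and 7.27% of its calls were false. DESeq2 recovered 87%, and 24.0% of its calls were false. Precision is limited by 4 libraries a group and, for low genes, by counting.

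The members and lists were chosen with earlier results of these data known, and 2 further genes set down for the other pathway list were left out of it and are not reported here. Named genes were the 9 members, Il1b and Il18, each other pathway gene with an adjusted p under 0.05 and a log2 change of at least 1, and the most similar gene of each member (genes of mean log2 CPM of at least 1, pseudocount 0.5 CPM).

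Alternatives were DESeq2 1.42.0, upper-quartile scaling, no filter, at least 10 counts in every library, an adjusted p under 0.01, a log2 change of at least 1, the replicate number as a block and each library left out. Scaling by total counts and the longest coding transcript as length were chosen after seeing the data. Across 8154 genes, which are not independent replicates, the deviations from the group mean correlated between libraries of equal number at 0.368, 0.183, 0.169 and 0.101. All were over 0.1, although vehicle replicate 2 with LPS replicate 4 (0.136) and vehicle replicate 4 with LPS replicate 2 (0.128) exceeded the lowest of them. By the limit of 0.1 the numbers were treated as pairs, from the data and not from the labels, and only in the replicate block. The main fit used the group alone, so values given without naming the block are unpaired.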

Additional observations from a re-analysis of the deposited data

Results flagged for a closer look

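In 40 groups of 4 libraries (20 genes in vehicle and in LPS), the distance of the highest or lowest library from its nearest neighbour was compared with the range of the group by Dixon's ratio, and 4 exceeded its 95% critical value. Chance flags about 1 in 20 groups. Nlrp3 in LPS replicate 1 was at 604 CPM, against 430.1 to 458 CPM in the other LPS libraries. Pycard in vehicle replicate 3 was at 49.1 CPM, against 38.0 to 38.8 CPM in the others. Kcnk6 in vehicle replicate 3 was at 60.9 CPM, against 52.6 to 54.0 CPM. Il1b in vehicle replicate 1 was at 82.2 CPM, against 23.0 to 32.3 CPM. Each of these 4 genes lay on one side of zero, with the same call, in every alternative run.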

How the results depend on the processing

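Apart from Ninj1 and Nlrc4, no call or direction of the 9 genes changed in the alternatives that tested them. The count of members called was 7 to 8 with each library left out, 8 with DESeq2, 7 under upper-quartile scaling and 6 of 8 tested where 10 counts in every library were required. Ninj1 was not called there (log2 fold change 0.67, edgeR adjusted p = 0.0572) or under upper-quartile scaling (0.58, edgeR adjusted p = 0.0965). Nlrc4 turned to -0.42 under scaling by total counts, which moves the median of all genes by -0.68. Requiring a log2 change of at least 1 left 5222 of all genes and 11 of the other pathway list called. All calls ranged from 8031 to 9314 with each library left out, and those of the other pathway list from 15 to 20. With the replicate block, 8 members, 17 of the other pathway list and 9044 of all genes were called, and beside Naip5 and P2rx7 no call of a member or listed gene changed. Depth limits Nlrp1b and Mefv, with under 20 and at most 35 counts in LPS libraries.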
